A study of Homo sapiens
Mus musculus with 24 samples.

Results

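Keratins, desmosomal proteins and cornified envelope proteins were examined as a set in the human (tumor) transcriptome of xenografts. The set held every human gene whose symbol was a numbered keratin (KRT), an SPRR, a numbered DSG, DSC or PKP, or one of DSP, JUP, PERP, PPL, EVPL, IVL, SFN and TP63. Of the 18880 human genes counted, 13621 carried a symbol and 38 met this rule. They comprised 22 keratins, 2 desmosomal cadherins, 6 desmosomal plaque proteins, 5 cornified envelope proteins and 3 genes linked to the p53 family. IVL, KRT1, KRT2, DSG1, DSG3 and DSC3 were not among the symbols in the table, and genes without a symbol could not be matched.

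The tumors grew from MDA-MB-231 cells, a human triple negative breast cancer (TNBC) line, mixed with Matrigel and collagen and placed under the skin at the neck of 14 week old female B6/Rag1KO mice. These hosts lack mature T and B cells, so the tumors were sampled without adaptive immunity in every group. Mice on a high fat diet were randomized to weekly saline (CTRL, n = 4), weekly doxorubicin and cyclophosphamide (Chemo, n = 5), moringa seed concentrate in the diet (MC, n = 5) or both (MC + Chemo, n = 6), and mice on a lean diet (Lean, n = 4) were followed as an unrandomized diet control. Each of the 24 libraries came from the tumor of a different mouse and takes its name from the treatment group and the number of the mouse. MC + Chemo 5 carries the MC + Chemo code in its title and MC in its group field, and was taken as MC + Chemo. Lean 3, MC 41 and MC 42 had an additional RNA cleanup.

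Keratins are intermediate filament proteins that assemble as pairs of a type I and a type II chain. Simple epithelia, including the luminal cells of the breast, make KRT8 and KRT18 with KRT7 and KRT19, and basal layers of stratified epithelia make KRT5 with KRT14, whereas KRT6, KRT16 and KRT17 are known as keratins of wounded or activated epidermis. Desmosomes anchor these filaments at cell contacts through cadherins (DSG, DSC) and plaque proteins (DSP, JUP, PKP), and the cornified envelope (PPL, EVPL, SPRR) is the crosslinked shell of the terminally differentiated keratinocyte.

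Human counts per library ranged from 7796231 to 17621273 and made up 47.8% to 74.0% of human plus murine counts. The 38 genes took 0.251% to 1.70% of the human counts, with the lowest share in CTRL 17 and the next lowest, 0.338%, in CTRL 44. The remaining CTRL tumors stood at 1.13% (CTRL 31) and 1.05% (CTRL 70), within the range of the treated tumors. MDA-MB-231 is known for abundant vimentin and for little E-cadherin or EPCAM. VIM was 71918 normalized counts in CTRL 17, 50209 in CTRL 44 and 4402 to 24619 elsewhere, and CDH1 (E-cadherin) was 2.73, 312 and 633 to 4472 in the same order. EPCAM was 73.8 in CTRL 17, 552 in CTRL 44 and 1207 to 5399 in the other 22 libraries, so VIM was lower and CDH1 and EPCAM higher in those 22 libraries than in these CTRL tumors. Other genes for which the line is known were present throughout, with means from 2258 (AXL) to 13520 (SPARC) for AXL, EGFR, CAV1, CD44 and SPARC. Relative to the median of 21 other libraries, CD44 stood at 96.35% and SPARC at 98.5% in CTRL 17, but AXL at 265.2%, EGFR at 170.8% and CAV1 at 134.6%. In CTRL 44, AXL stood at 247.2%, CAV1 at 187.4%, EGFR at 116.6%, CD44 at 89.85% and SPARC at 67.43%. Of 9 genes listed as low or absent in the line, FOXA1 and ESR1 averaged 8.63 and 30.5 normalized counts and CLDN3, GATA3 and ERBB2 242 to 448, whereas CDH1, EPCAM, CLDN4 and CLDN7 averaged 2666 to 5877, which goes against the label for these 4 genes. The part of tissue composition in these differences was not tested, and in bulk RNA fewer cells of a type and less RNA per cell cannot be told apart. Results are given with all libraries and, where a call or value changed, without CTRL 17 and CTRL 44.

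**Figure D1:**
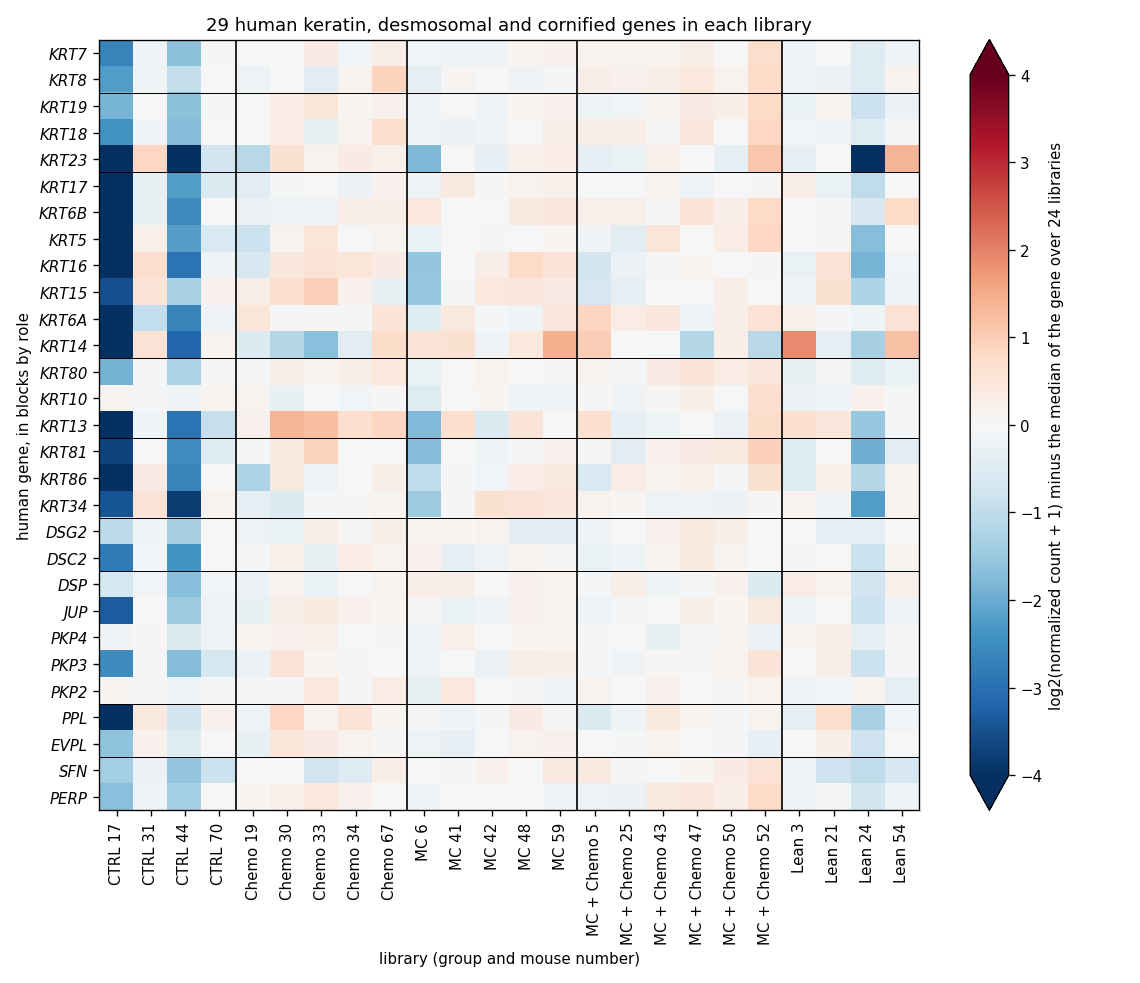
Level of the 29 genes with a mean above 30 normalized counts (rows, in blocks by role) in 24 libraries (columns, by group), as log2(normalized count + 1) minus the median of the gene, with colors capped at 4 in either direction. CTRL 17 and CTRL 44 are blue for nearly every gene, Lean 24 less so, while KRT10 and PKP2 show no such drop and PKP4 drops only in CTRL 44 (66.1% of the 21 library median) of the 2 CTRL tumors.

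KRT81, the simple keratins KRT19, KRT18 and KRT7 and the desmosomal DSP were the 5 members with the highest mean in every group. Each transcript gives a single 3′ tag in this assay, so levels were not divided by gene length, and levels of different genes are comparable only as tag counts. KRT81 (ENSG00000205426), a hair keratin, averaged 30184 normalized counts over the 24 libraries and ranked 17th among all human genes by mean count. KRT19 averaged 22005, KRT18 11443, KRT7 9880 and KRT8 2879. The group means of DSP were above those of KRT7 in CTRL, MC and Lean and below them in Chemo and MC + Chemo, and in CTRL 17 DSP (5784) was above KRT81, KRT18 and KRT7, so no order of DSP and the keratins was read. KRT86, the close relative of KRT81, averaged 1895. Because KRT81 and KRT86 are nearly identical, as are KRT6A and KRT6B, and KRT14, KRT16 and KRT17 to a lesser degree, the division of reads within these families is uncertain.

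Most stratified keratins were below the main simple keratins in tag counts. KRT17 averaged 2992, KRT6B 1298, KRT5 1057, KRT16 795, KRT15 469, KRT6A 379 and KRT14 288 normalized counts. Of the suprabasal and mucosal keratins, KRT80 averaged 1411 and KRT10 1275, while KRT13 averaged 89.6. The library ranges of KRT6B, KRT10 and KRT80 overlapped, so no order among these was read.

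Desmosomal genes spanned a wide range. DSP, the desmoplakin that ties keratin to the plaque, averaged 9168 normalized counts and JUP (plakoglobin) 3590. The cadherins DSG2 and DSC2 averaged 1804 and 1164, and the plakophilins PKP4, PKP3 and PKP2 averaged 1064, 1031 and 178, with PKP1 at 16.7. DSG2 and DSC2 are the cadherins found in simple as well as stratified epithelia, and PKP1, the plakophilin typical of stratified epithelium, was the least abundant desmosomal gene.

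Of the cornified envelope genes in the set, the SPRR genes were scarce. The envelope plakins PPL and EVPL averaged 369 and 209 normalized counts, whereas SPRR2A, SPRR2D and SPRR1B, small proline-rich envelope precursors, averaged 14.1, 5.98 and 5.43. TP63, the regulator of basal keratinocyte identity, averaged 9.20 and reached at most 21 (Lean 3). SFN, the 14-3-3 sigma protein first known as a p53 target, averaged 3330, and PERP, a p53 family target at desmosomes, averaged 3310.

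CTRL 17 and CTRL 44 carried the lowest counts of most members. Of the 29 genes with a mean above 30, CTRL 17 was the lowest library for 22 (75.9%) and CTRL 44 for 5 (17.2%). Over the 12673 human genes with such a mean the shares were 17% and 10.6%. CTRL 17 and CTRL 44 were together the lowest pair for 22 of the 29 genes (75.9%), compared with 10.4% of all genes. Relative to the median of the 21 libraries other than these and Lean 24, the median member stood at 13.6% in CTRL 17, 29.9% in CTRL 44 and 53.5% in Lean 24, while the median of all genes stood at 99.6%, 100.7% and 100.3%. These libraries were singled out after their values were seen, so the shares are a description.

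In CTRL 17 the drop was deepest among basal and activated keratins, with a median of 0.219% of the 21 library median, against 7.59% for hair keratins. In CTRL 44 these medians were 14.9% and 15.2%, and the lowest member was KRT23 (1.17%), so no order of the roles was read there. In CTRL 17, KRT6B was at 0 reads and KRT5, KRT16 and KRT6A at 1 read each, and KRT17 was at 38.3 normalized counts against 2224 to 4307 in the 21 libraries. In CTRL 44, KRT5 was at 243, KRT6B at 213, KRT16 at 104, KRT6A at 57 and KRT17 at 720. Both CTRL tumors were therefore below all 21 other libraries for each of these keratins. Hair keratins dropped likewise, with KRT81 at 2474 in CTRL 17 and 5724 in CTRL 44 against 9796 to 62767.

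KRT7, KRT8, KRT18 and KRT19, the main simple keratins, dropped less steeply in CTRL 17. Their values there were 26.3% of the 21 library median for KRT19, 20.8% for KRT8, 18.5% for KRT18 and 15.6% for KRT7, and in CTRL 44 30.7%, 50.1%, 29.9% and 31.8%, where the basal keratin KRT15 stood at 36.3%. KRT23, a scarce type I keratin, was at 0 reads in CTRL 17, 1 read in CTRL 44 and 3 reads in Lean 24. Each of the 7 basal and activated keratins stood at 7.60% of the median or less in CTRL 17, below KRT7, KRT8, KRT18 and KRT19.

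Desmosomal genes differed among themselves. JUP, PKP3 and DSC2 stood at 9.77%, 17.3% and 13.6% of the median in CTRL 17, but DSP at 55.9% and DSG2 at 48.4%. DSP was lower in CTRL 44 (28.0%) than in CTRL 17. PKP4 and PKP2, plakophilins that are not confined to stratified epithelia, stood at 88.8% and 107% in CTRL 17 and at 66.1% and 89.5% in CTRL 44. The 726 normalized counts of PKP4 in CTRL 44 were the lowest of all libraries, below 880 to 1265 in the 21 libraries. KRT10, a keratin of suprabasal epidermis, stood at 109% in CTRL 17 and 90.2% in CTRL 44.

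Outside the set, many but not all regulators of epithelial identity were low in the same libraries. Among 17 keratinocyte transcription regulators with a mean above 30, 10 were below 50% of the median in CTRL 17 and 9 in CTRL 44, against 13.5% and 14.4% of all genes. GRHL2, an activator of epithelial genes, was at 0.911 normalized counts in CTRL 17 and at 35.4 in CTRL 44, below its lowest value of 233 in the 21 libraries. JAG1 went the other way, at 232.6% of the median in CTRL 17 and 316.5% in CTRL 44, and KLF4 stood at 103.4% and 89.24%. Cornified and differentiation genes outside the set were below 50% in CTRL 17 for 9 of 12 and in CTRL 44 for 9 of 12. CASP14, the protease of cornifying keratinocytes, was at 0.911 and 76.0 compared with 345 to 2852. Hemidesmosome and basement membrane genes were below 50% for 4 of 10 in either tumor, and ITGA6, a hemidesmosomal integrin, was instead above its 21 library range in both (3332 and 4349 against 1129 to 3207).

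Chemo against CTRL asked how chemotherapy alone changed the tumor. SFN, KRT13, PKP3, KRT80 and PERP had the lowest unadjusted p values among the better counted members, and none passed. KRT13, a mucosal keratin, was at 0.911, 71.5, 9.5 and 42.1 normalized counts in CTRL 17, 31, 44 and 70, and at 90.3, 207, 185, 128 and 146 in the 5 Chemo tumors. Every Chemo tumor was above every CTRL tumor for KRT13, and the log2 fold change was 2.28 ± 0.62 (SE), at an edgeR adjusted p of 0.0948. PKP3, a desmosomal plaque protein, was at 191, 1034, 325 and 671 in CTRL and 924 to 1560 in Chemo, with 1 overlapping CTRL tumor, CTRL 31, and a log2 fold change of 1.07 ± 0.32 (SE), at an edgeR adjusted p of 0.108. The log2 fold changes without CTRL 17 and CTRL 44 were 1.41 for KRT13, 0.45 for PKP3, 0.34 for SFN, 0.25 for KRT80 and 0.24 for PERP, and without CTRL 31 alone that of KRT13 was 3.04.

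With all 3 criteria (adjusted p below 0.05, mean above 30 normalized counts, fold change above 1.5), edgeR called 0 of the 36 members tested and 0% of the 16434 genes tested. At an unadjusted p below 0.05, 17 of 36 members were higher and 0 lower, against a background of 7.84% of all genes higher and 10.4% lower. The median log2 fold change was 0.80 over the members and -0.02 over all genes. For PERP, KRT19, KRT13 and KRT6A every Chemo tumor lay above every CTRL tumor, 4 of 36 members, compared with 1.92% of all genes. DESeq2 called 2 members, KRT13 and PKP3, where it called 2.64% of all genes. Without CTRL 17 and CTRL 44 the median log2 fold change of the members was 0.16, with 2 at an unadjusted p below 0.05 and none called by either tool. Without CTRL 17 alone the median was 0.49 and without CTRL 44 alone 0.60, and edgeR called 8 members without CTRL 31 and 5 without CTRL 70. The counts in these refits are given without a share of all genes, so they show only how far the counts moved.

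MC against CTRL asked what moringa concentrate alone changed. SFN was at 1447, 3113, 1227 and 2043 normalized counts in CTRL 17, 31, 44 and 70, and at 3743, 3569, 4162, 3742 and 4766 in the MC tumors. All MC tumors were above all CTRL tumors, with a log2 fold change of 1.02 ± 0.24 (SE), at an edgeR adjusted p of 0.406. The exact permutation p of 0.00794 (two-sided, unadjusted), the smallest this design allows, follows from that lack of overlap and adds no evidence. DSP was at 5784, 8861, 2893 and 8787 in CTRL and at 9398 to 11514 in MC, without overlap, and its log2 fold change was 0.69 ± 0.23 (SE), at an edgeR adjusted p of 0.406. KRT17 did not overlap either, with 38.3, 2740, 720 and 2224 in CTRL and 2934 to 4307 in MC, and its log2 fold change was 1.35 ± 0.56 (SE). PKP3 and KRT6A, also among the 5 lowest p values, did overlap CTRL. PKP3 was at 921 to 1312 in MC against 191 to 1034 in CTRL, with CTRL 31 inside the MC range, and KRT6A at 261 to 501 against 0.911 to 326, with CTRL 70 inside it. Their log2 fold changes were 1.00 and 1.41, at edgeR adjusted p values of 0.406 and 0.433. The values without CTRL 17 and CTRL 44 were 0.38 for PKP3, 0.56 for KRT6A, 0.56 for KRT17 and 0.27 for DSP, and without CTRL 70 alone that of KRT6A was 2.25.

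edgeR called 0 of 36 members and 0% of all genes for MC. At an unadjusted p below 0.05, 10 of 36 members were higher and 0 lower, against 4.79% of all genes higher and 5.93% lower. The median log2 fold change was 0.70, and 35 of 36 members were higher, where 47% of all genes were. Non-overlap held for 3 of 36 members (SFN, DSP and KRT17), against 0.748% of all genes. DESeq2 called 1 member, SFN, where it called 0.0632% of all genes. Without CTRL 17 and CTRL 44 the median was 0.06 and 25 of 38 members were higher. Without either alone it was 0.40 (CTRL 17) or 0.49 (CTRL 44), and in the fit without both SFN had a log2 fold change of 0.63.

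MC + Chemo against CTRL gave the single call. SFN (ENSG00000175793) rose by a log2 fold change of 1.14 ± 0.23 (SE), at an edgeR adjusted p of 0.0305, or 2.21-fold. Its MC + Chemo tumors ran from 3720 through a median of 4248 to 5530 normalized counts, all above the CTRL range of 1227 to 3113. The mean was 4374 ± 695 (SD, n = 6) in MC + Chemo and 1957 ± 844 (SD, n = 4) in CTRL. The exact permutation test gave p = 0.00476 (two-sided, unadjusted), the smallest this design allows, which follows from that lack of overlap and adds no evidence. Without CTRL 17 and CTRL 44 the log2 fold change was 0.75 ± 0.24 (SE), at an edgeR adjusted p of 0.266, and the call was also lost without CTRL 17 alone (adjusted p = 0.121), CTRL 44 alone (0.0802), MC + Chemo 47 (0.0713) or MC + Chemo 52 (0.0622).

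**Figure D2:**
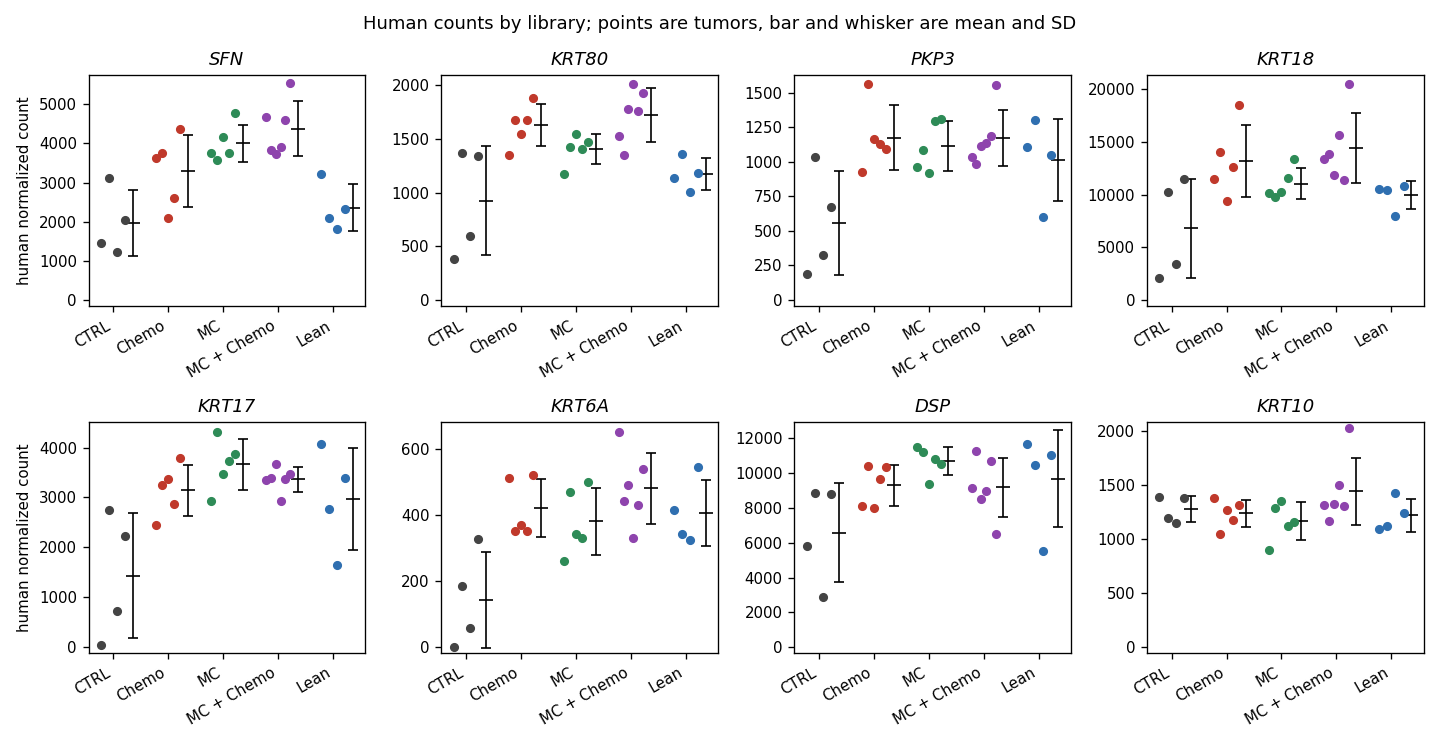
Human normalized counts of 8 genes by group, with 1 point per tumor and the mean with SD beside each group. SFN in MC + Chemo (3720 to 5530) and MC (3569 to 4766) lies above CTRL (1227 to 3113), KRT17 is lowest in CTRL 17 (38.3) and CTRL 44 (720), and KRT10 is level in all 5 groups.

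The next lowest p values in MC + Chemo belonged to KRT80, PKP3, PERP and KRT18, none of which passed. KRT80, a keratin of differentiating epithelia, was at 384, 1365, 599 and 1344 normalized counts in CTRL and ran from 1346 through 1765 to 2014 in MC + Chemo, with a log2 fold change of 0.88 ± 0.25 (SE), at an edgeR adjusted p of 0.0603. PERP was at 1055, 3031, 1313 and 3360 in CTRL and 2855 to 5672 in MC + Chemo, so CTRL 31 and CTRL 70 overlapped the treated tumors (edgeR adjusted p = 0.0685). KRT18, the partner of KRT8, was at 2124, 10242, 3423 and 11448 in CTRL and 11362 to 20452 in MC + Chemo, where only CTRL 70 reached the treated range, with a log2 fold change of 1.07 ± 0.34 (SE), at an edgeR adjusted p of 0.0833. In the fit without CTRL 17 and CTRL 44 the log2 fold changes were 0.40 for KRT18, 0.45 for PKP3, 0.33 for KRT80 and 0.33 for PERP.

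Over the set, edgeR called 1 of 36 members in MC + Chemo, against 1.6% of the 16434 genes tested (263 genes). At an unadjusted p below 0.05, 16 of 36 members were higher and 0 lower, against 9.19% of all genes higher and 13.5% lower. By role, 2 of 2 type II and 2 of 3 type I simple keratins, 2 of 7 basal and activated keratins, 2 of 4 suprabasal and mucosal keratins, 2 of 2 desmosomal cadherins, 2 of 6 plaque genes, 1 of 5 hair keratins, 1 of 4 cornified envelope genes and 2 of 3 p53-linked genes were among the 16. KRT17, KRT7, KRT8, SFN and KRT6A did not overlap CTRL, 5 of 36 members, compared with 2.65% of all genes. DESeq2 called 8 members, all higher (KRT7, KRT8, KRT18, KRT19, KRT80, PKP3, PERP and SFN), where it called 4.46% of all genes. Without CTRL 17 and CTRL 44 both tools called 0 members, the median log2 fold change went from 0.86 to 0.17, and 6 members were higher and 1 lower at an unadjusted p below 0.05 in edgeR. No share of all genes is given for that refit, so its counts are not read as a result about the members.

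**Figure D3:**
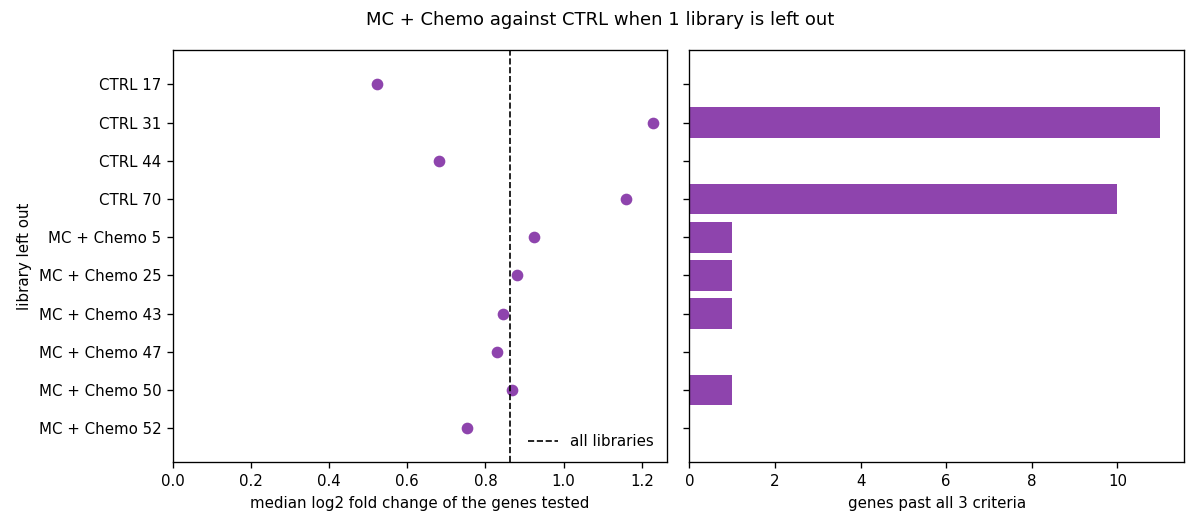
MC + Chemo against CTRL refitted with 1 of the 10 libraries left out, showing the median log2 fold change of the genes tested (left, dashed line at 0.86 with all libraries) and the number past all 3 criteria (right). The median is lowest when CTRL 17 is left out (0.52) and highest when CTRL 31 is (1.23), and calls number 11 or 10 when CTRL 31 or CTRL 70 is left out but 0 when CTRL 17 or CTRL 44 is. The share of all genes called in each refit is not shown.

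The 3 treatment comparisons share the 4 CTRL tumors, so their values are given side by side and not as separate evidence. KRT6A, a wound keratin, had a log2 fold change of 1.55 in Chemo, 1.41 in MC and 1.74 in MC + Chemo, and KRT5 of 1.02, 0.96 and 1.21. Corresponding values were 0.88, 0.73 and 1.00 for KRT7 and 1.31, 0.79 and 1.31 for KRT81. KRT14 departed from this with 0.16, 1.19 and 0.55. KRT10 had -0.06, -0.14 and 0.16, and PKP2 0.16, 0.07 and 0.12.

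**Figure D4:**
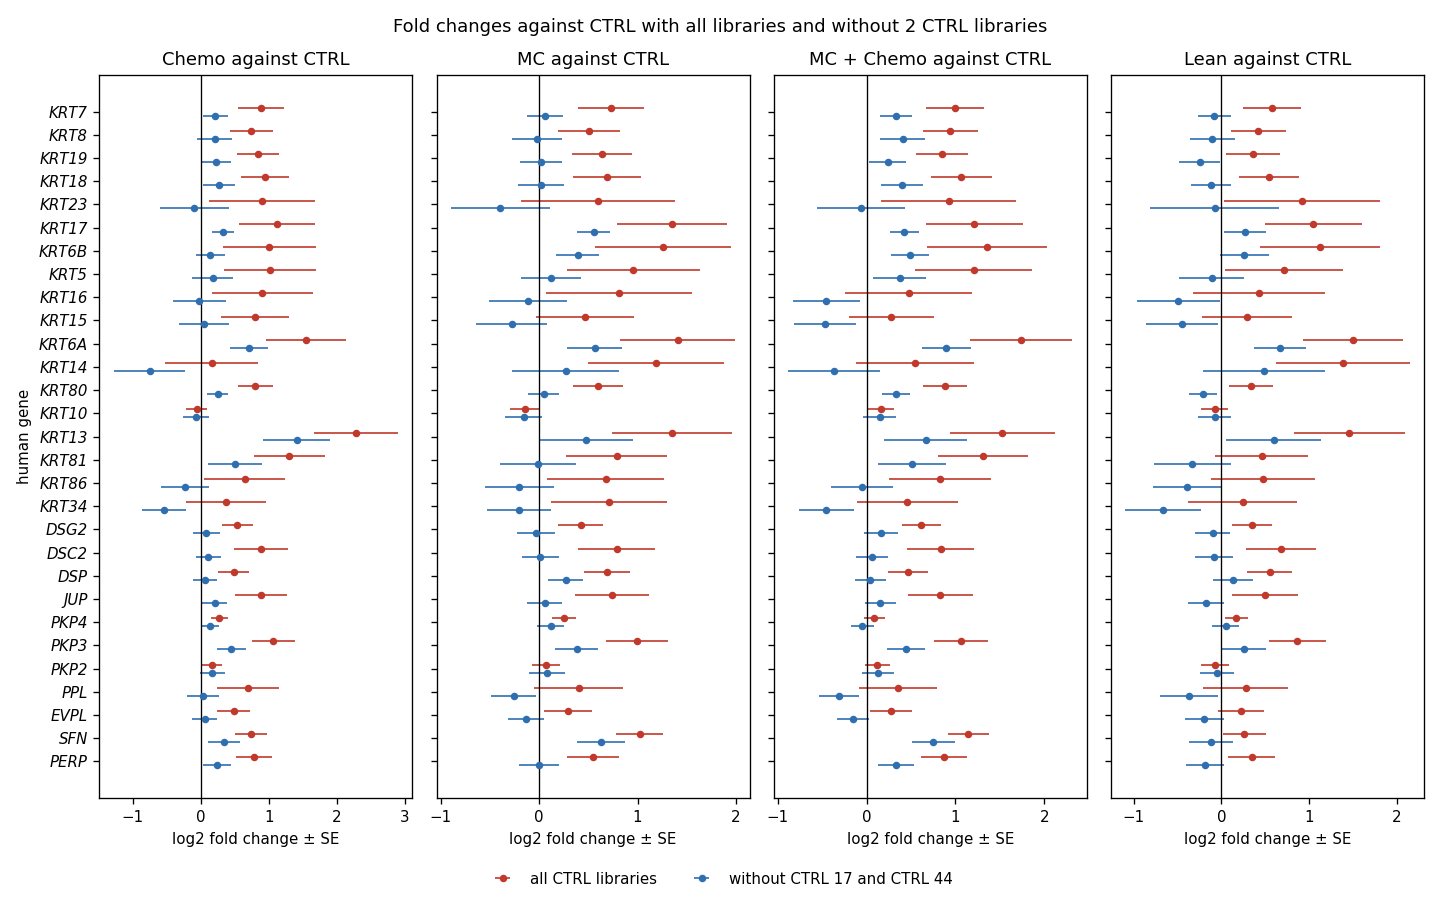
Log2 fold change (± SE) of 29 genes in each group against CTRL, from edgeR with all libraries (red) and without CTRL 17 and CTRL 44 (blue). In MC + Chemo, 32 of the 36 genes tested in both fits lie nearer 0 without those tumors, and SFN is at 0.75 and KRT6A at 0.90. Those tumors were singled out as lowest for most members, so a shift toward 0 was built into the choice.

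The fit without CTRL 17 and CTRL 44 compared the treated tumors with CTRL 31 and CTRL 70. Of the 36 members tested in both fits, 32 lay nearer 0 in Chemo, 33 in MC and 32 in MC + Chemo, and 9, 11 and 9 changed sign. CTRL 17 and CTRL 44 were singled out after they were seen to be lowest for most members. A shift of higher values toward 0 was therefore built into that choice and is a description only. No share of all genes moving nearer 0 is given beside it. KRT6A had log2 fold changes of 0.71, 0.56 and 0.90 there and KRT17 of 0.33, 0.56 and 0.42. KRT5 was left with 0.18, 0.12 and 0.37, KRT7 with 0.21, 0.063 and 0.33 and KRT81 with 0.50, -0.0093 and 0.51. KRT14 stood at -0.75, 0.27 and -0.37 and KRT34 at -0.54, -0.20 and -0.45. With only these 2 CTRL tumors no member was called in any comparison, and the effect of the tumors left out and the loss of replicates cannot be told apart.

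MC + Chemo against Chemo, which shares no CTRL tumor, asked what moringa concentrate added to chemotherapy. edgeR called 0 of 36 members and 0% of all genes, 0 members were higher and 0 lower at an unadjusted p below 0.05, where 3.29% of all genes were higher and 7.13% lower, and DESeq2 also called 0. The median log2 fold change of the members was 0.02. SFN was at 3632, 3746, 2104, 2597 and 4377 normalized counts in Chemo and 3720 to 5530 in MC + Chemo, with a log2 fold change of 0.41 ± 0.21 (SE), at an edgeR adjusted p of 0.515. PKP4, KRT10, KRT13 and KRT75 had values of -0.19, 0.22, -0.75 and 0.73.

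Chemotherapy against no chemotherapy, averaged over MC, gave 0 calls by edgeR (0% of all genes) and by DESeq2. At an unadjusted p below 0.05, 12 of 36 members were higher and 0 lower, against 7.65% of all genes higher and 9.93% lower. The lowest p values belonged to KRT80 (log2 fold change 0.54), PERP (0.56), KRT13 (1.23), KRT18 (0.66) and KRT8 (0.59), with edgeR adjusted p values from 0.135 to 0.167. Without CTRL 17 and CTRL 44 the median of the members went from 0.45 to 0.12.

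The interaction term asked whether MC and chemotherapy together differed from the sum of each on the log2 scale. It was below 0 for 35 of 36 members, with a median of -0.75, in a term that CTRL enters with a positive sign. Over all genes tested, 49.48% were above 0 and the median was -0.006. edgeR called 0 members and 0% of all genes and DESeq2 0. At an unadjusted p below 0.05, 4 members were lower and 0 higher, against 3.93% of all genes lower and 5.81% higher. PKP4 was at -0.44, KRT13 at -2.10, PKP3 at -1.01 and DSP at -0.72, each with an edgeR adjusted p of 0.511, and SFN at -0.62 (edgeR adjusted p = 0.517). The median of the members was -0.08, KRT13 at -1.23 and PKP3 at -0.39 without CTRL 17 and CTRL 44, and without CTRL 31 alone KRT13 was at -2.86.

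Lean against CTRL asked about diet, without randomization. KRT6A was at 416, 344, 324 and 545 normalized counts in Lean 3, 21, 24 and 54 and at 0.911, 184, 57 and 326 in CTRL 17, 31, 44 and 70, and the single overlap was between Lean 24 and CTRL 70. Its log2 fold change was 1.5 ± 0.57 (SE), at an edgeR adjusted p of 0.685. PKP3, KRT13, DSP and KRT17 had values of 0.87, 1.46, 0.55 and 1.05. With CTRL 17 and CTRL 44 left out KRT6A was at 0.67 and these at 0.26, 0.60, 0.14 and 0.27, while without CTRL 70 alone KRT6A was at 2.35 and without CTRL 31 alone KRT13 was at 2.21. edgeR called 0 members and 0% of the 16588 genes tested, and DESeq2 0. At an unadjusted p below 0.05, 4 of 36 members were higher and 0 lower, against 2.77% of all genes higher and 4.31% lower, and the members' median went from 0.43 to -0.11 without CTRL 17 and CTRL 44.

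Of the 63 genes tested in 5 other lists, 2 were called in MC + Chemo against CTRL, where 1.6% of all genes were called. CLDN7, a claudin of tight junctions, rose by a log2 fold change of 1.30 ± 0.32 (SE), at an edgeR adjusted p of 0.0415, and VIM, the mesenchymal intermediate filament, fell by 1.78 ± 0.46 (SE), at an edgeR adjusted p of 0.0481. CLDN7 was at 470 in CTRL 17 and 960 in CTRL 44, against 1664 to 5170 in the 21 libraries, so the same tumors stood apart, and edgeR called 0 genes of the whole table in the fit without them. Of the 20 keratinocyte transcription regulators, 4 were higher and 0 lower at an unadjusted p below 0.05, where 9.19% of all genes were higher and 13.5% lower, and the lowest p values belonged to HES1 (0.62), GRHL3 (1.72) and OVOL1 (1.34). Of the 18 other cornified and differentiation genes tested, 3 were higher and 0 lower, namely CDSN (1.55), CALML5 (2.02) and TGM1 (0.94). Of the 10 hemidesmosome and basement membrane genes, 3 were higher and 2 lower, with CD151 at 0.50 (edgeR adjusted p = 0.0491, under the fold threshold), DST at -0.75 and LAMB3 at 0.70.

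Murine counts of the same genes were set beside the human counts, since each library holds both. Of 23 members with a murine namesake in the murine table, 19 had a mean of at least 10 in both genomes. Murine Krt5 amounted to 7.20% of the human KRT5 count over all libraries, Krt19 to 9.75%, Krt18 to 3.34%, Dsp to 27.6%, Krt14 to 76.4% and Pkp4 to 60.01%. In CTRL 17 murine Krt5 was at 0.960 normalized counts and Krt17 at 3.84, against 25.9 to 164 and 78.2 to 579 in the other 23 libraries. CTRL 17 was the lowest library for KRT5 and KRT17 in both genomes.

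Because CTRL 17 and CTRL 44 were the lowest libraries for most members, correlations were read over the other 22 libraries, a choice made after seeing the data. Lean 24 stayed in, although its murine Krt5 (25.9) was below that of CTRL 44 (35.9). Its human KRT5 stood at 30.35% of the 21 library median, against 21.1% in CTRL 44. No correlation was computed without all of CTRL 17, CTRL 44 and Lean 24. Over the 22 libraries, 8 of 19 pairs passed by both Pearson and Spearman coefficients after Benjamini-Hochberg adjustment of permutation p values over the 19. These permutations took no account of group, and values centred by group were correlated only over all 24 libraries. KRT5 with Krt5 gave r = 0.86 (permutation p = 1e-05, the smallest these permutations can give, adjusted p = 1.27e-04) and rho = 0.73 (permutation p = 2.1e-04, adjusted p = 9.97e-04). KRT18 with Krt18 gave r = 0.80 and rho = 0.80, KRT8 with Krt8 0.77 and 0.76, DSP with Dsp 0.75 and 0.79, and KRT10 with Krt10 0.69 and 0.70. KRT13, PKP2, PKP3, DSC2 and JUP gave r between -0.21 and 0.21.

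Over all 24 libraries, 13 of 19 pairs passed by Spearman's rho and 14 by Pearson's r, and 11 by r on values centred by group. For KRT5 r was 0.97 (rho 0.79) over the 24 libraries, 0.96 after centring and 0.79 (rho 0.73) without Lean 24 and CTRL 17, the 2 libraries farthest from the murine median. For KRT17 r was 0.91 and fell to 0.45 without CTRL 17 and CTRL 44, so that relation rested on those tumors. JUP passed by r (0.49, adjusted permutation p = 0.0467) and by r after centring (0.58, adjusted permutation p = 0.0155), but not by rho (0.15). Its r was -0.04 without CTRL 17 and Chemo 33. Whether reads of one species were counted in the other was not tested.

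**Figure D5:**
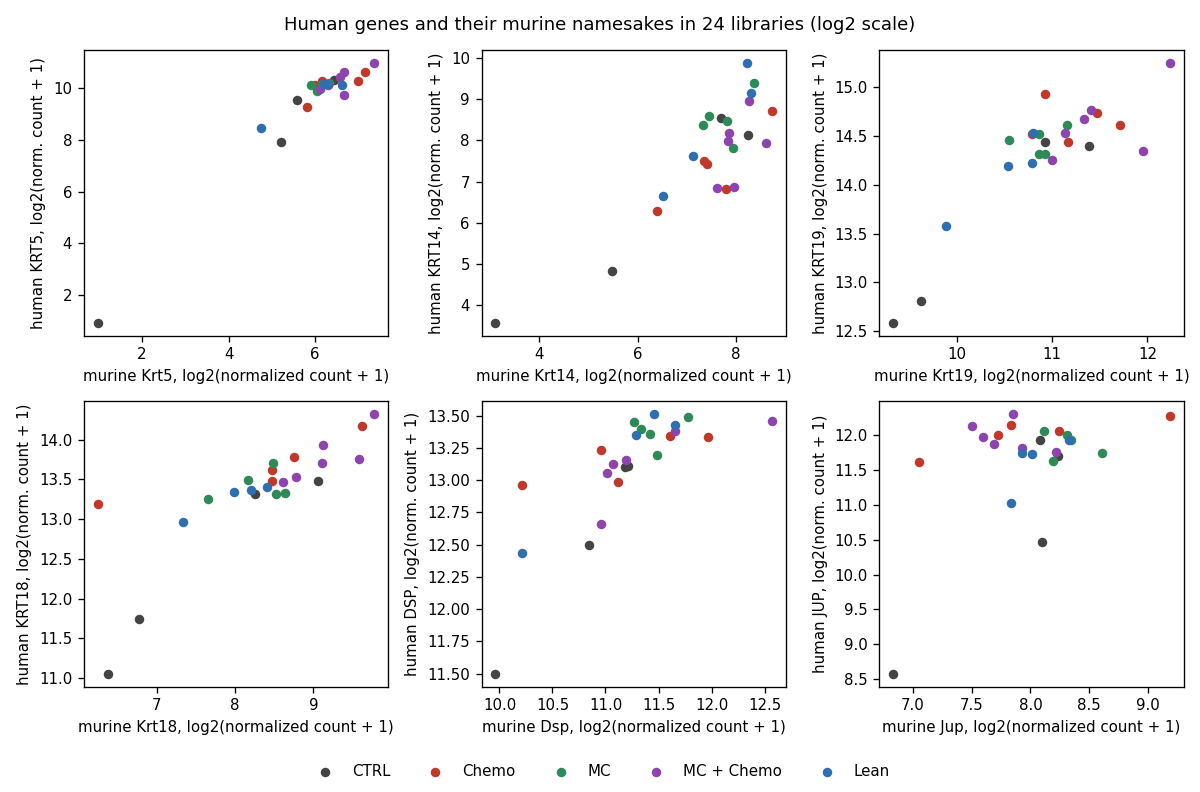
Human gene (vertical) against its murine namesake (horizontal) in 24 libraries, both as log2(normalized count + 1), colored by group. KRT5, KRT18 and DSP rise with Krt5, Krt18 and Dsp (r = 0.86, 0.80 and 0.75 over 22 libraries). JUP gave r = 0.21 over those 22 libraries, and r = 0.49 with rho = 0.15 over the 24 plotted.

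Markers of murine skin and hair were looked up for host tissue in the tumors. Of 20 skin keratinocyte markers 11 were in the murine table, and Krt1, Krt2, Lor and Flg were not among the symbols there. Without the keratins, the summed level of the remaining 7 ranged from 70.5 to 331 normalized counts in CTRL, 120 to 248 in Chemo, 114 to 169 in MC, 138 to 241 in MC + Chemo and 119 to 233 in Lean. The highest CTRL value was that of CTRL 17, in which murine Dmkn (258) and Krtdap (40.3) were higher than in any other library while Col17a1 was lowest (5.76). Of 21 hair follicle markers 2 were in the table, Krt73 at 0 to 10.5 and Padi4 at 0 to 31.7. Padi4 is known mainly as a peptidylarginine deiminase of neutrophils and other myeloid cells, so its level was not read as hair follicle signal. The part of host skin in the human values was not tested.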

How the data were processed

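Snap-frozen tumors from 24 mice were profiled by QuantSeq 3′ tag sequencing (50 bp forward reads). Per the labels and the study's methods, the authors aligned reads with BlueBee software and deposited raw counts per gene for the human and the murine genome, with normalized counts (a signal scaled by DESeq2 size factors). The submitters' processing notes name DESeq2 1.22.2 and the murine build GRCm38, and the human build is not given in the sources used here. Genes with a total under 72 were not in the tables. Human depth was 7796231 to 17621273 counts per library.

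The deposited human counts were fitted with edgeR 4.0.16 (quasi-likelihood, TMM, filterByExpr by group, Benjamini-Hochberg over all genes) in R 4.3.3. The 20 high fat diet libraries shared 1 fit, and all 24 entered the Lean comparison. Of the 38 genes, 36 passed the filter in either fit (SPRR1B and KRT78 did not), and 29 had a mean above 30. A gene was called at an adjusted p below 0.05, a mean above 30 and a fold change above 1.5, the thresholds of the study. Members with a mean of 30 or less could therefore not be called. Normalized counts (pseudocount 1) served for levels, exact permutation tests and correlations (100000 permutations, scipy 1.17.1). DESeq2 1.42.0, RLE factors, no filter, 2-group fits, the MC reading of MC + Chemo 5, the extra-cleanup libraries and each library were tried as alternatives, and fits without CTRL 17 and CTRL 44 were added after the data were seen. The scripts were tested on simulated data. Genes named are those called, the 5 lowest p values per comparison with a mean above 30 and, by level, every gene with a mean above 30. All further names were picked with their values in view. Members and lists were chosen with earlier results of these data known.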

Additional observations from a re-analysis of the deposited data

Results flagged for a closer look

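A single tumor lay far from the rest of its group (by Dixon's test at the 95% level) in 7 of 145 combinations of gene and group, and chance alone flags about 1 in 20, or 7.25 here. In Lean 24, KRT5 was at 349 normalized counts against 1108 to 1156 in the other Lean tumors, KRT18 at 8014 against 10394 to 10833, and PERP at 1995 against 2994 to 3178. In MC + Chemo 52, KRT7 was at 16532 against 10255 to 12377, PKP3 at 1557 against 987 to 1188, and KRT23 at 158 against 54.8 to 83.1. In MC 6, KRT5 was at 942 against 1120 to 1183.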

How the results depend on the processing

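Among the 5 members with the lowest p values in each comparison, no log2 fold change changed sign under any alternative run. Without CTRL 17 and CTRL 44 other members did, among them KRT14 in Chemo (0.16 to -0.75) and MC + Chemo (0.55 to -0.37) and KRT81 in MC (0.79 to -0.0093). Calls in Chemo against CTRL went from 0 to 2 with DESeq2, and ranged from 0 to 8 with 1 library left out. In MC against CTRL DESeq2 gave 1. In MC + Chemo against CTRL the count of 1 became 8 with DESeq2, 0 in a fit of the 2 groups alone, 0 without CTRL 17 and CTRL 44 and 0 with DESeq2 without both, and ranged from 0 to 11 with 1 library left out (0 on leaving out MC + Chemo 52, MC + Chemo 47, CTRL 44 or CTRL 17, 10 without CTRL 70, 11 without CTRL 31). SFN had an adjusted p of 0.205 in the fit of the 2 groups alone. For chemotherapy against no chemotherapy the count ranged from 0 to 4 with 1 library left out (4 without CTRL 31, 2 without CTRL 70). Counts with 1 library left out are given without the share of all genes called, so they show only how far the counts moved. The other 3 comparisons stayed at 0 calls under every alternative. RLE factors, no filter, the MC reading of MC + Chemo 5 and leaving out the extra-cleanup libraries left each count of calls as it was. The number of murine namesake pairs passing by rho was 13, 13 with a pseudocount of 5, 11 with a minimum mean of 30 and 8 without CTRL 17 and CTRL 44. No paired analysis was possible because no mouse number occurs in more than 1 group. SPRR1B, SPRR2D, KRT78 and TP63 had means under 10 normalized counts and were thus measured least precisely. A call required a mean above 30, so none of these genes could be called in any comparison. SPRR1B in MC + Chemo against CTRL had a DESeq2 log2 fold change of 2.52 and a DESeq2 adjusted p of 0.107.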
